A study of Mus musculus with 6 samples.

Results

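The S100, annexin and galectin-1 genes described here are 10 of the 23951 rows of a deposited expression table, chosen by gene name. They are S100a4, S100a6, S100a10, S100a11, S100a13, Anxa1, Anxa2, Anxa5, Anxa6 and Lgals1. The RNA came from mouse CD8+ T cells with wild-type or floxed alleles of Tcf7, which encodes Tcf1, and Lef1, a related pair of HMG-box transcription factors of T cells. Both groups came from mice with the hCD2-Cre transgene, driven by human CD2 sequences that are active in lymphoid cells, and the Rosa26-lsl-GFP reporter, which marks cells in which Cre has acted. In the first group (WT) the Tcf1 and Lef1 alleles were wild-type. In the second, called double-knockout (DKO) here, both were floxed, and the labels call the cells Tcf1/Lef1-deficient. Spleen cells were sorted as GFP+ TCRbeta+ CD62Lhi CD44lo-med CD8+ and then kept in IL-7 and IL-15 for 72 h. Both cytokines sustain naive and memory T cells. Each group has 3 libraries, and the labels give neither the age of the mice nor whether libraries came from separate animals, so the p-values reflect spread that may be technical.

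S100 proteins are small EF-hand proteins, and most are calcium sensors that change shape when they bind calcium and then dock onto other proteins. Annexins bind negatively charged phospholipids in a calcium-dependent way and act at the plasma membrane and on vesicles, where S100a10 and annexin A2 join into a heterotetramer. Galectin-1, encoded by Lgals1, is a lectin that binds galactose-containing glycans on surface glycoproteins and can restrain or kill activated T cells. RNA of several of these genes is known to be more abundant in effector and memory CD8+ T cells than in naive ones.

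The unit of expression is FPKM, in which fragments are divided by the length of the transcript and the size of the library, so the depth itself is not known. Relative depths were estimated from the most frequent ratio between WT library 0 and each library among values under 0.3 FPKM. They ran from 1 to 1.23, and between 10473 and 10551 genes reached 1 FPKM per library. Tcf7 stood at 532 to 564 FPKM in WT and 270 to 288 FPKM in DKO, and Lef1 at 105 to 157 and 48.5 to 52.2 FPKM. At 0 h, in the authors' deposited table, Lef1 was lower in the group labelled DKO (log2 fold change of -1.51, q = 0.00031), but Tcf7 was not called (-0.10, q = 0.53). Which exons were floxed is not stated, and a value per gene also counts the exons that remain. Of 16 listed T cell identity genes, 16 had a mean above 1 FPKM and 0 were called between groups (limma; 1 higher and 3 lower at an unadjusted p under 0.05). Among all genes tested, limma called 4.31% higher and 6.36% lower in DKO. Of these 10723 genes, 1347 were higher and 1461 lower at an unadjusted p under 0.05. Libraries carry here the numbers 0 to 2 of their columns, and no label links these to the numbered samples.

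The members did not deviate independently of each other within a library, which bears on every result that follows. All 9 members that could be tested lay below their group mean in WT library 0 and in DKO library 2, and all 9 lay above it in WT library 1 and DKO library 0. The members' median deviation, on the log2(FPKM + 1) scale, was -0.36, 0.45 and -0.10 in WT libraries 0 to 2 and 0.22, 0.066 and -0.41 in DKO libraries 0 to 2. Ribosomal protein genes deviated in the same libraries, with medians of -0.37 in WT library 0 and -0.34 in DKO library 2, and they took between 23.5% and 35.0% of all FPKM per library. When FPKM was rescaled without ribosomal protein and small RNA rows, 4 members were lower in DKO, with limma adjusted p of 0.0083 for Anxa2, 0.00053 for Anxa5, 0.0060 for Lgals1 and 0.012 for S100a13. That fit called 573 of 10283 genes lower and 489 higher, and its median log2 fold change over all genes was 0.090. For the members, values without WT library 0 and DKO library 2 are given beside the calls that were lost. Companion genes are the lists below of other family genes, partners, galectin-1 ligands and glycan enzymes, and effector or cytoskeletal genes. Among these, 13 were called in the main fit and 1 without those libraries, and their single values from that fit are not given.

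**Figure D1:**
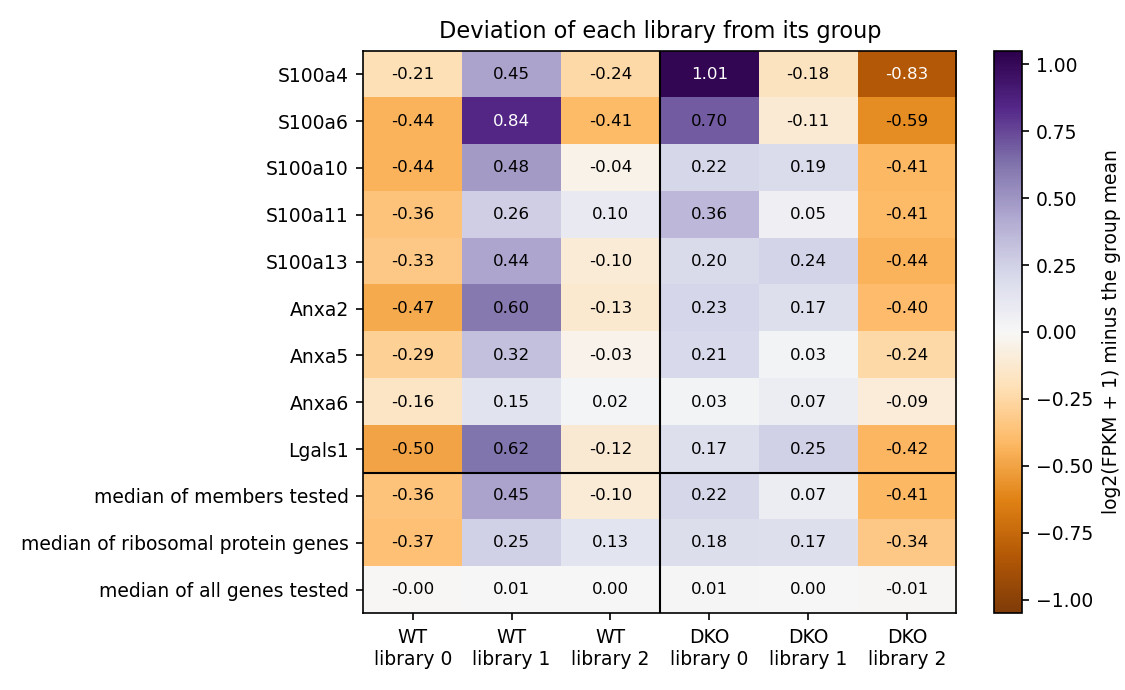
Deviation of each library (columns) from its group mean in log2(FPKM + 1) for the 9 tested members, for the median of ribosomal protein genes and for the median of all genes tested. Members run below their group in WT library 0 and DKO library 2 and above it in WT library 1 and DKO library 0, whereas the median of all genes stays near 0.

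The stretches before the starts of 4 members are shown because Anxa2 and Anxa5 fell in DKO, whereas S100a4 and S100a11 were not called by limma, S100a4 with a positive value that the authors list as higher. They were chosen after the values were seen. The sequences are those of RefSeq on GRCm38.p6, whose promoter table holds 7 of the 10 members, and each stretch ends before the first start annotated by RefSeq or GENCODE. Capitals mark CTTTGA, the core of the sequence that TCF and LEF factors bind, or TATAAA, the TATA box.
Anxa2, chr9:69453433-69453619, plus strand: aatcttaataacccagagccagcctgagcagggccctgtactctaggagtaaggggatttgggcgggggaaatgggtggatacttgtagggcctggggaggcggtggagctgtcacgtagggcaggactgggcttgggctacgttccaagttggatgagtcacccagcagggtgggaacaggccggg
Anxa5, chr3:36475895-36476137, minus strand: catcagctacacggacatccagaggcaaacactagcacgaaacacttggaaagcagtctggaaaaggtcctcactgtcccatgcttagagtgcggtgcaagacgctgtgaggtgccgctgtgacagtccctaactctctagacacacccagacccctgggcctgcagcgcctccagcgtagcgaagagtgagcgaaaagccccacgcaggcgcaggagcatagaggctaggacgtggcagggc
S100a4, chr3:90603520-90603769, plus strand: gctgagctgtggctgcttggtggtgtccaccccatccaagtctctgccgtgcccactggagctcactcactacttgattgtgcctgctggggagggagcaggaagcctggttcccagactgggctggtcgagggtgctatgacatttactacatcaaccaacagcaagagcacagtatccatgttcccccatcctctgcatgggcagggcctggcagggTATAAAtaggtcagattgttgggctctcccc
S100a11, chr3:93520246-93520487, plus strand: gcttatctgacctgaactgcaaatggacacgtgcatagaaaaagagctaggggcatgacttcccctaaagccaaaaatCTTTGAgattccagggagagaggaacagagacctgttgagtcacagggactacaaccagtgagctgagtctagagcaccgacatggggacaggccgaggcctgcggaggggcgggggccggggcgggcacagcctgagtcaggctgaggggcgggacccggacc

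Within 250 bases before the RefSeq start, on either strand, CTTTGA occurred in 1 of the 7 members, S100a11, at 172 bases before the start, and in 14.05% of all 27025 promoters of the table. CTTTGT, the other form of the core, occurred in 0 of the 7 and in 16.46% of all. TATAAA, searched on the strand of the gene and added after the data were examined, lay 31 bases before the start of S100a4, 32 before that of Anxa1 and 17 before that of Anxa2, against 8.12% of all promoters. The matches in Anxa1 and Anxa2 lie past the starts that GENCODE annotates, and that in Anxa2 is not in the stretch above. For S100a13 the window, 90514185 to 90514434, lies mostly past a gene start at 90514233 that RefSeq also annotates. The Anxa5 stretch overlaps an exon of a neighbouring gene, 1810062G17Rik. A match is a description of letters in this window only.

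In WT, S100a10 was the most abundant at 514 ± 165 FPKM (SD, n = 3, as for all levels that follow), followed by Lgals1 at 383 ± 156, Anxa6 at 269.5 ± 28.9, S100a11 at 214 ± 45.3 and S100a13 at 127 ± 36.3 FPKM. Neighbours among these 5 overlapped in their library values. S100a6 at 51.4 ± 28.8 FPKM lay apart from its neighbours on both sides. Anxa5 at 23.9 ± 5.36, S100a4 at 22.2 ± 6.61 and Anxa2 at 15.4 ± 6.45 FPKM overlapped in sequence, and Anxa1 was last at 0.50 ± 0.50 FPKM. In DKO, S100a10 stood apart from the rest at 565 ± 129 FPKM. Lgals1 came after S100a11 and Anxa6 there, and S100a4 and S100a13 stood next to each other at 59.0 ± 39.7 and 58.4 ± 14.3 FPKM with overlapping libraries.

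**Figure D2:**
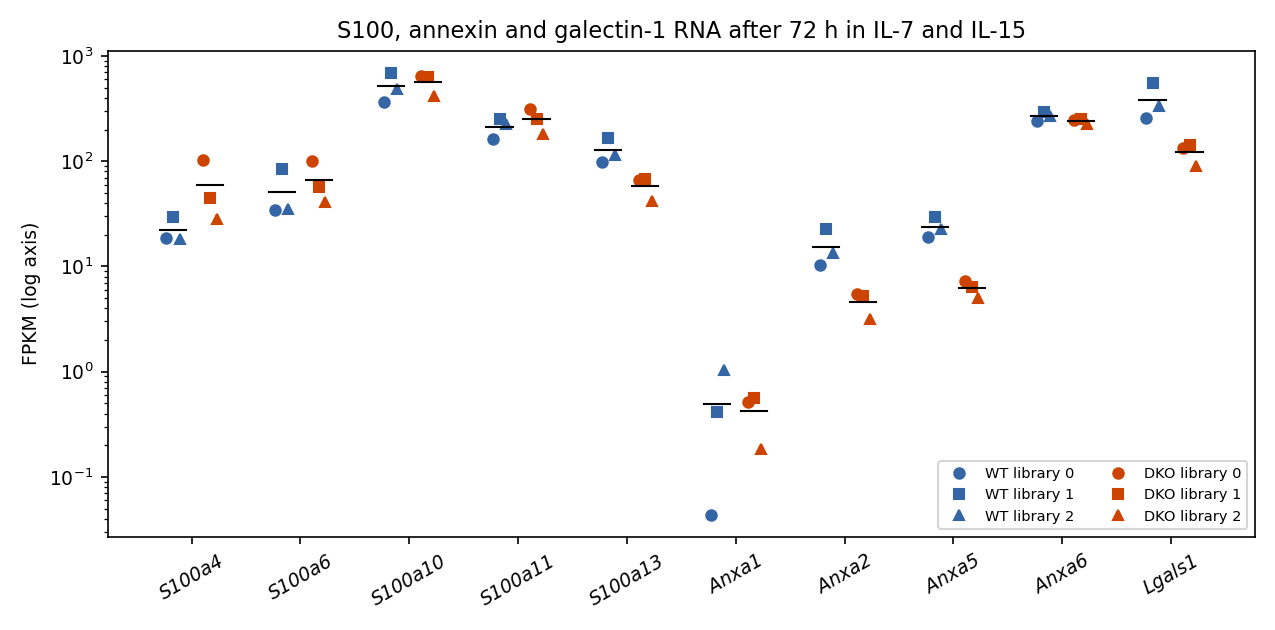
FPKM (log axis) of the 10 members in each of the 3 WT (blue) and 3 DKO (orange) libraries, with the symbol giving the library number and a bar at the group mean. The groups lie apart, with DKO lower, for S100a13, Anxa2, Anxa5 and Lgals1, and overlap for the other 6 members.

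The main comparison asks how the members differed between genotypes after 72 h in culture. Anxa2, Anxa5 and Lgals1 fell in DKO, S100a13 was lower in every DKO library but missed the threshold, and S100a4 had the largest value in the opposite direction. Of the 9 members with a mean of at least 1 FPKM, limma on log2(FPKM + 1) called 3 lower and 0 higher at an adjusted p under 0.05, against 6.36% lower and 4.31% higher among all 10723 genes tested. At an unadjusted p under 0.05, 4 were lower and 1 higher, against 1461 lower and 1347 higher of all 10723 genes. The authors' deposited table lists 4 members lower (the same 3 and S100a13) and 1 higher (S100a4), against 3.67% and 1.55% of 11555 genes. The libraries of the groups lay apart for 4 members, all with DKO below WT, against 17.1% of all genes in that direction and 17.0% in the other. The median log2 fold change was -0.16 over the 9 members and 0.0082 over all genes. The count of 3 became 1 without WT library 1 or 2 or DKO library 0, 1 or 2, and was 3 without WT library 0. In these bulk samples, fewer cells that express a gene and less RNA per cell cannot be told apart.

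Anxa5 showed the fall with the smallest p. It encodes annexin A5, the phosphatidylserine-binding protein used to stain dying cells, and lies on chromosome 3 at 36448923 to 36475894, minus strand (GENCODE M21 on GRCm38, as for all positions). WT libraries 0, 1 and 2 held 19.1, 29.7 and 22.9 FPKM of it, and DKO libraries 0, 1 and 2 held 7.31, 6.33 and 5.07 FPKM. Every DKO library was below the lowest WT library, and the mean was 3.83-fold lower. On the log2 scale this was -1.77 (SE 0.19, limma adjusted p = 0.0054). The call held without each single library in turn, with adjusted p from 0.012 to 0.0305, but was lost (adjusted p = 0.075) in the fit with 4 libraries that leaves out WT library 0 and DKO library 2, in which 28 genes in all were called.

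Anxa2 encodes annexin A2, which links membranes to actin and is the partner of S100a10 (chromosome 9, 69453620 to 69491795, plus strand). Its values were 10.3, 22.6 and 13.3 FPKM in WT and 5.48, 5.22 and 3.19 FPKM in DKO, without overlap, and the mean was 3.32-fold lower in DKO. On the log2 scale the difference was -1.50 (SE 0.31, limma adjusted p = 0.036). The call held without WT library 0 (-1.73, adjusted p = 0.041) and in no other fit that leaves out 1 library. Leaving out WT library 1 or 2 gave an adjusted p of 0.055 or 0.087, and leaving out DKO library 0, 1 or 2 gave 0.092, 0.10 or 0.098, while the log2 fold change stayed between -1.61 and -1.20 in these 5 fits. The call was also lost with no filter on low values (adjusted p = 0.061), without WT library 0 and DKO library 2 (0.094), and without WT library 1 and DKO library 0 (0.11), a setting chosen after the data were seen.

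Lgals1 (chromosome 15, 78926725 to 78930465, plus strand) held 257, 558 and 333 FPKM in WT and 135, 144 and 89.6 FPKM in DKO. The highest DKO library lay well below the lowest WT library, although WT library 1 held more than the other WT libraries, as it did for Anxa2. The mean was 3.12-fold lower, or -1.59 on the log2 scale (SE 0.33, limma adjusted p = 0.036). As for Anxa2, the call was lost without WT library 1 (adjusted p = 0.055), WT library 2 (0.088) or DKO library 0, 1 or 2 (0.10, 0.093 and 0.097), with no filter (0.057), without WT library 0 and DKO library 2 (0.091) and without WT library 1 and DKO library 0 (0.13). The genome also holds the processed copies Lgals1-ps1 and Lgals1-ps2, which have no row in the table, so how reads shared with them were assigned is uncertain.

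Of the other annexins among the members, Anxa6 was not called and Anxa1 was too low to test. Anxa6, a double-length annexin of the plasma membrane and endosomes (chromosome 11, 54979108 to 55033445, minus strand), had 240, 297 and 272 FPKM in WT and 245, 251 and 225 FPKM in DKO. Its log2 fold change was -0.16 with a 95% interval of -0.44 to 0.12 (limma adjusted p = 0.42). Anxa1, which encodes the glucocorticoid-induced annexin A1 (chromosome 19, 20373428 to 20390944, minus strand), lay between 0.044 and 1.03 FPKM in WT and between 0.18 and 0.57 FPKM in DKO. It did not reach the filter and was not tested, and with no filter its log2 fold change was -0.030 with an interval of -0.67 to 0.61 (limma adjusted p = 0.97). The FPKM of Anxa6 was 10.02 to 12.6 times that of Anxa5 in WT libraries and 33.5 to 44.3 times in DKO libraries, a ratio picked after the values were seen and not tested.

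Among the S100 members, S100a13 was the one with lower values in DKO. It encodes a protein that takes part in the non-classical release of growth factors and cytokines (chromosome 3, 90514435 to 90524581, plus strand). Its values were 97.9, 168 and 115 FPKM in WT and 65.8, 67.5 and 41.9 FPKM in DKO, without overlap. The log2 fold change was -1.10 (SE 0.27), and limma's adjusted p of 0.056 missed the threshold. It passed when FPKM was rescaled without ribosomal protein and small RNA rows (log2 fold change of -1.01, adjusted p = 0.012) and with a term for WT library 0 and DKO library 2, which was added after the data were seen (adjusted p = 0.016). The authors' deposited table gives -1.12 with q = 0.00064.

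S100a4, also known as metastasin and a binder of non-muscle myosin (chromosome 3, 90603771 to 90606045, plus strand), had 18.6, 29.8 and 18.1 FPKM in WT and 104, 44.9 and 28.2 FPKM in DKO. DKO library 2 fell below WT library 1, and DKO library 0 held more than the other DKO libraries. The log2 fold change was 1.20 with a 95% interval of 0.021 to 2.38 (limma adjusted p = 0.18). It was 0.70 without DKO library 0 and 1.62 without DKO library 2. The authors' deposited table calls it higher, at 1.41 with q = 0.00064. S100a6, or calcyclin (chromosome 3, 90612882 to 90624181, plus strand), had 34.3, 84.7 and 35.1 FPKM in WT and 101, 57.4 and 41.0 FPKM in DKO. Its groups overlapped, and the log2 fold change was 0.40 with an interval of -0.74 to 1.54 (limma adjusted p = 0.62). Leaving out 1 library took it from 0.050 without DKO library 0 to 0.82 without WT library 1, with 0.18 and 0.20 without WT library 0 or 2 and 0.69 without DKO library 2.

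S100a10 and S100a11, the most abundant S100 members, overlapped between the genotypes. S100a10, the annexin A2 partner (chromosome 3, 93555080 to 93564643, plus strand), had 367, 693 and 483 FPKM in WT and 644, 634 and 416 FPKM in DKO. Its log2 fold change was 0.16 with a 95% interval of -0.56 to 0.87 (limma adjusted p = 0.76), and it was -0.063 without WT library 0. S100a11, which binds annexin A1 (chromosome 3, 93520488 to 93526287, plus strand), had 164, 253 and 225 FPKM in WT and 313, 253 and 183 FPKM in DKO. Its log2 fold change was 0.21 with an interval of -0.40 to 0.82 (limma adjusted p = 0.63). A processed copy, S100a11-ps, has no row in the table, so the assignment of shared reads is uncertain. In FPKM, S100a10 was 35.8, 30.6 and 36.3 times Anxa2 in the WT libraries, against 118, 121 and 130 times in the DKO libraries. This ratio of the partners' RNA was chosen after the values were seen, rests on the fall of Anxa2 above and carries no test of its own.

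Other genes of the families were also split. S100a1, a calcium sensor best known from heart muscle, was at 14.3, 23.6 and 16.2 FPKM in WT and 3.002, 1.97 and 2.57 FPKM in DKO. It was 7.19-fold lower, at -2.42 on the log2 scale (SE 0.21, limma adjusted p = 0.0038), and its call held without each single library (adjusted p from 0.0050 to 0.021). Lgals3, which encodes galectin-3, was at 5.86, 15.1 and 6.25 FPKM in WT and 1.54, 1.01 and 0.37 FPKM in DKO, or -2.28 on the log2 scale (SE 0.40, limma adjusted p = 0.022). Lgals3 passed the filter through its level in WT. Its call was lost without DKO library 0, 1 or 2 (adjusted p of 0.054, 0.079 and 0.064). Of 2 tested genes on the list of other S100 genes 1 fell, of 3 other annexins 0 were called (limma; also 0 at an unadjusted p under 0.05, and 0 in the authors' deposited table), and of 5 on the list of other galectins 1 fell. The filter kept 2 of 13, 3 of 8 and 5 of 10 genes on these lists. Among all genes tested, limma called 6.36% lower and 4.31% higher. Anxa4, Anxa7 and Anxa11 had log2 fold changes of 0.020, -0.027 and 0.021. Lgals8 was higher in all 3 DKO libraries, as were 17.0% of all genes, at 0.35 (limma adjusted p = 0.077). Lgals9, Lgals3bp, S100pbp and Lgals4 were at 0.016, -0.019, 0.011 and 0.41 without a call. Reads of Lgals4 can be shared with its close copy Lgals6.

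**Figure D3:**
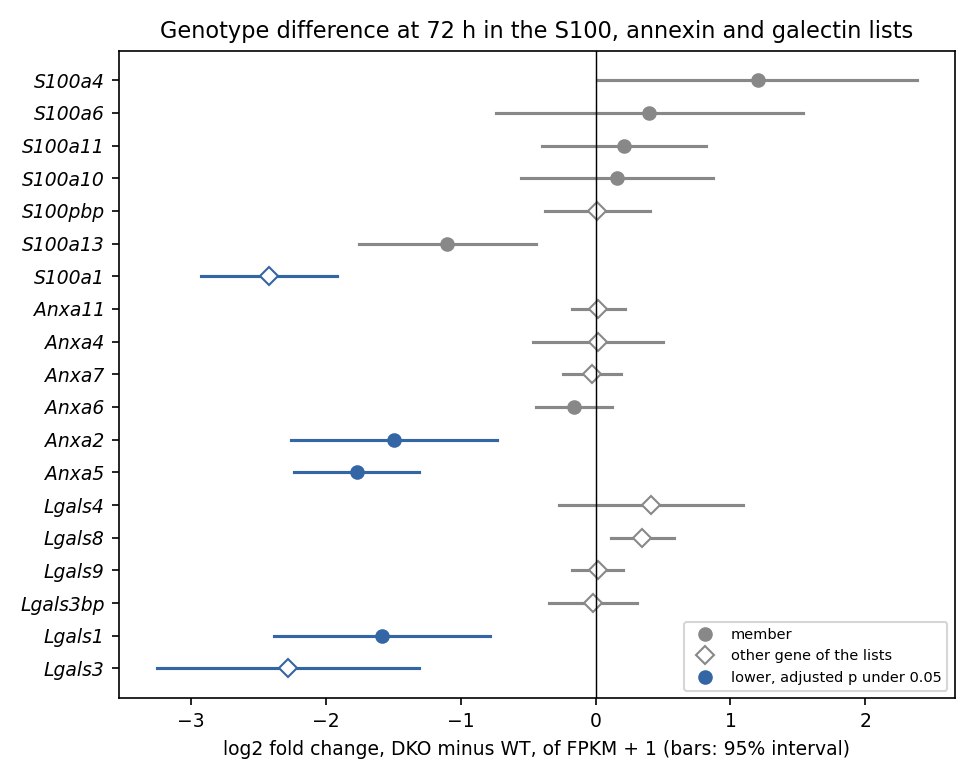
Log2 fold change between DKO and WT of FPKM + 1 with its 95% interval for the tested members (filled circles) and the other tested genes of the S100, annexin and galectin lists (open diamonds). Genes called lower at an adjusted p under 0.05 are blue, and these are S100a1, Anxa2, Anxa5, Lgals1 and Lgals3.

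The 5 S100 members all lie on chromosome 3, in 2 stretches, with S100a10 and S100a11 about 3006 to 3041 kb from S100a13. The S100 cluster was looked at along the chromosome after the values were seen. S100a1 and S100a13 start head to head, on opposite strands, with 42 bases between their GENCODE starts, and both had lower values in DKO. Their RefSeq annotations overlap, and the labels do not state that counting used strand, so reads from the overlap cannot be told apart. On the far side of S100a1, Chtop, Snapin and Ilf2 had log2 fold changes of -0.17, 0.18 and -0.023, with limma adjusted p of 0.29, 0.17 and 0.92. S100a4 and S100a6, which start 89.3 and 98.5 kb from S100a13, had positive values. The other S100 genes of the cluster, up to S100a9, stood at under 1 FPKM in every library.

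**Figure D4:**
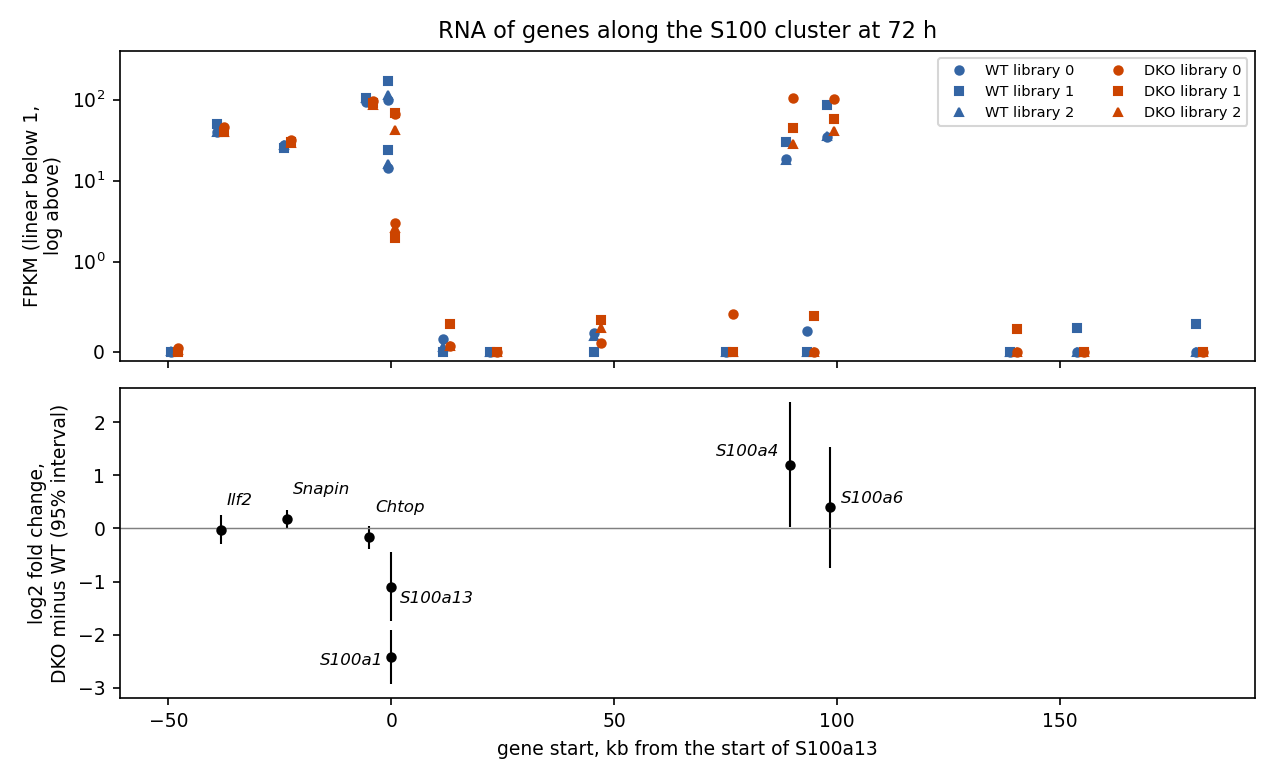
Genes along the S100 cluster, placed by the distance of their start from that of S100a13 in kb, with FPKM per library above (linear below 1, log above) and the log2 fold change between DKO and WT with its 95% interval below. S100a1 and S100a13 lie below 0, S100a4 and S100a6 have positive values, and the 3 genes at negative distances beyond S100a1 lie near 0.

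How the members stood before culture was taken from the authors' deposited table alone, because values of the 0 h libraries were not used here. Its 4 comparisons share groups, so they are set side by side without a test between them. At 0 h, 6 members were higher and 1 lower at q under 0.05 in the group labelled DKO, in which Tcf7 was not called lower, against 14.7% and 16.9% of 11247 genes with a q below 1. In WT cells, 6 were higher and 1 lower at 72 h than at 0 h, against 25.8% and 22.1% of 11553 genes. In DKO cells, 3 were higher and 3 lower at 72 h than at 0 h, against 24.8% and 20.4% of 11551 genes. Anxa1 had no usable q at 0 h.

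Anxa2, Lgals1 and S100a13 had opposite signs between the genotypes before and after culture. For Anxa2 the authors' deposited table gives a log2 fold change, DKO against WT, of 1.47 at 0 h (q = 0.00031) and -1.73 at 72 h (q = 0.00064). From 0 h to 72 h it gives 1.44 in WT (q = 0.00020) and -1.79 in DKO (q = 0.00023), so Anxa2 was higher with culture in WT and lower in DKO. For Lgals1 the authors' deposited table gives 0.99 at 0 h (q = 0.00031) and -1.64 at 72 h (q = 0.00064), with 2.55 from 0 h to 72 h in WT (q = 0.00020) and -0.11 in DKO (q = 0.47). For S100a13 the authors' deposited table gives 0.29 at 0 h (q = 0.029) and -1.12 at 72 h, with 1.59 over culture in WT (q = 0.00020) and 0.16 in DKO (q = 0.31). The difference between the genotype effects at 0 h and 72 h was not tested.

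Anxa5 had the same sign at both times. In the authors' deposited table its log2 fold change between DKO and WT was -2.10 at 0 h and -1.94 at 72 h, and it was lower after culture in both genotypes, at -0.55 in WT and -0.40 in DKO. S100a6 was higher in DKO at 0 h by 5.24 (q = 0.00031) and had 0.37 at 72 h (q = 0.11), with 6.77 over culture in WT and 1.89 in DKO, all from the authors' deposited table. S100a4 had values of like size, with 5.38 at 0 h in the authors' deposited table, where q = 0.12, and with 6.11 over culture in WT (q = 0.017) and 2.12 in DKO (q = 0.00023). Beside the WT levels at 72 h, these changes imply WT levels under 1 FPKM at 0 h for S100a6 and S100a4. The sizes of their changes from WT at 0 h are therefore uncertain. S100a10 was higher in DKO at 0 h by 0.76 and over culture by 0.94 in WT and 0.30 in DKO in the authors' deposited table. S100a11 showed 0.24 at 0 h (q = 0.042) and 0.044 and 0.0062 over culture, and Anxa6 -0.0090 at 0 h and -0.31 and -0.49 over culture in the authors' deposited table, of which the last passed (q = 0.00082). S100a1 and Lgals3, outside the members, were higher over culture in WT by 4.31 and 6.35 in the authors' deposited table, and over culture in DKO they had 0.78 (q = 0.087) and 1.83 (q = 0.0028). For S100a1 and Lgals3 too, the WT levels at 0 h implied by these changes are under 1 FPKM, so the sizes of the changes in WT are uncertain.

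**Figure D5:**
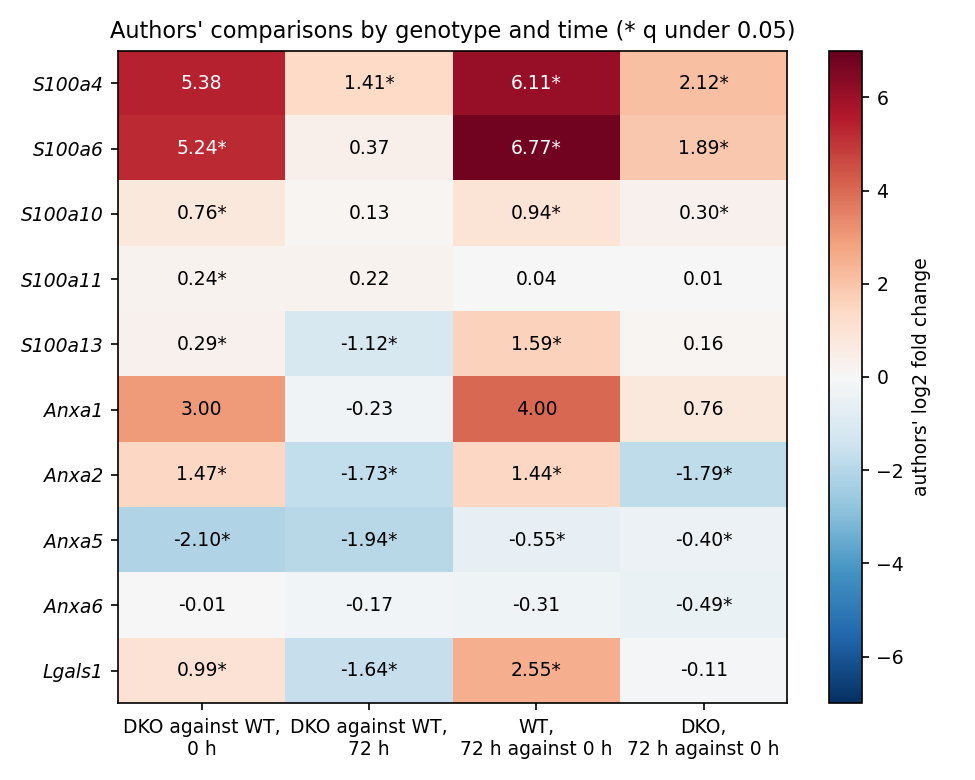
Log2 fold changes of the 10 members in the authors' 4 comparisons, with colour and printed number giving the same value and an asterisk marking q under 0.05. Anxa2, Lgals1 and S100a13 are positive at 0 h and negative at 72 h between the genotypes, whereas Anxa5 is negative in both.

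Genes that work with the members were followed in lists. Of 9 tested partners of S100 proteins and annexins, 1 fell and 0 rose in DKO, against 6.36% lower and 4.31% higher among all genes tested (limma). At an unadjusted p under 0.05, 2 were lower and 1 higher, against 1461 and 1347 of all 10723 genes. The median log2 fold change was -0.043. The gene called was Sugt1, a co-chaperone that binds S100a6, at -0.57 (limma adjusted p = 0.013). It lost its call without DKO library 0 or 2 (adjusted p up to 0.063). Ahnak, the giant scaffold bound by the complex of S100a10 and annexin A2, was higher in all 3 DKO libraries, as were 17.0% of all genes. Its log2 fold change was 0.45 (limma adjusted p = 0.10).

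Of 17 tested galectin-1 ligands and glycan enzymes, 4 rose and 1 fell, against 4.31% higher and 6.36% lower among all genes tested (limma). At an unadjusted p under 0.05, 5 were higher and 2 lower, against 1347 and 1461 of all 10723 genes. The median log2 fold change was 0.17. Cd7, a surface glycoprotein that galectin-1 binds, rose from 301 ± 44.4 to 541 ± 76.5 FPKM (log2 fold change of 0.84, limma adjusted p = 0.030), and its call held only without WT library 1 among the fits that leave out a library (adjusted p otherwise up to 0.11). Gcnt4, a core-2 glycan branching enzyme, rose from 0.022 ± 0.0032 to 9.30 ± 0.35 FPKM and passed the filter through its level in DKO. B4galt1, which adds galactose, rose from 63.4 ± 0.16 to 105 ± 3.99 FPKM, and Nrp1, neuropilin-1, from 1.57 ± 0.39 to 11.6 ± 3.35 FPKM. Gcnt4, B4galt1 and Nrp1 kept their calls without each single library. Itgb1, the integrin beta-1 chain, fell by 0.39 on the log2 scale (limma adjusted p = 0.040) and lost that call without any 1 library (adjusted p from 0.053 to 0.15).

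Of 26 tested genes of the cytoskeleton and of effector or memory cells, 4 rose and 2 fell, against 4.31% and 6.36% of all genes tested (limma). At an unadjusted p under 0.05, 4 were higher and 4 lower, against 1347 and 1461 of all 10723 genes. The median log2 fold change was -0.17. Ccl5, a chemokine of memory and effector CD8+ T cells, rose from 145 ± 60.7 to 848 ± 42.2 FPKM (limma adjusted p = 0.0057). Prdm1, which encodes the effector factor Blimp-1, rose from 0.26 ± 0.12 to 2.02 ± 0.46 FPKM (adjusted p = 0.011). Cd48, an adhesion ligand, rose by 0.49 on the log2 scale (limma adjusted p = 0.019), a call that held only without WT library 1 among the fits that leave out a library (adjusted p otherwise up to 0.098). Ccl5 kept its call without each single library, and Prdm1 in the 4 such fits in which it passed the filter. Cx3cr1, a chemokine receptor of effector cells, rose by 0.92 on the log2 scale (limma adjusted p = 0.047) and lost its call in each of the 5 such fits that held it (adjusted p from 0.075 to 0.145). Prdm1 and Cx3cr1 passed the filter through their levels in DKO. Cd44 and Id2, a receptor and a regulator that mark effector and memory cells, were lower in every DKO library, as were 17.1% of all genes. Neither was called, at -0.73 and -0.68 (limma adjusted p = 0.17 and 0.18). The authors' deposited table lists Cd44 as lower at -1.16 (q = 0.00064). Vim, the intermediate filament gene vimentin, stood at 286, 364 and 259 FPKM in WT and 192, 160 and 153 FPKM in DKO. Its log2 fold change was -0.84 (limma adjusted p = 0.030), and its call held only without WT library 2 (adjusted p otherwise up to 0.12).

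Summed markers of myeloid, B, stromal and red cells overlapped between the groups. The sums of NK and CD4 lineage markers, made up mostly of Nkg7 and of Foxp3, were higher in every DKO library. S100a8 and S100a9, which neutrophils and monocytes hold at very high levels, were listed at 0 in 5 of the 6 libraries and at 0.26 and 0.31 FPKM in WT library 1. Of 25 myeloid markers 6 passed the filter and 0 were called (limma), against 4.31% higher and 6.36% lower among all genes. At an unadjusted p under 0.05, 1 was higher, against 1347 of all 10723 genes. The summed FPKM of the myeloid markers was 76.1 to 116 in WT and 74.1 to 133 in DKO, of which Cst3 made up 86.3%. Ngp, Lcn2, Clec9a and Cd209a were at 0 throughout. The sums of 11 B cell markers were 13.8 to 22.4 and 18.7 to 27.7 FPKM, of which Cd79b made up 94.6%, with Ms4a1 and Pax5 at 0. Those of 14 stromal and endothelial markers were 32.8 to 37.4 and 27.7 to 33.8 FPKM, mostly Pecam1, and those of 14 erythroid and platelet markers 3.05 to 6.38 and 5.84 to 8.42 FPKM. The sums of 14 NK and innate markers were 572.5 to 870 FPKM in WT and 997 to 1200 FPKM in DKO, of which Nkg7 made up 67.9%. Of these 14, 5 reached a mean of 1 FPKM, and limma called Gzma higher and Eomes lower in DKO. The sums of 8 CD4 lineage markers were 1.62 to 6.07 and 98.1 to 119.5 FPKM, of which Foxp3 made up 97.9%. Foxp3 was the only 1 of the 8 with a mean of at least 1 FPKM. The part of the NK and CD4 lineage markers in the members' differences was not tested.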

How the data were processed

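RNA was sequenced from 3 WT and 3 DKO samples on a HiSeq-2000, per the labels' protocols, which name no strand setting. The authors' table was deposited with FPKM values per library as Cuffdiff scaled them. It also holds the authors' log2 fold changes and q-values of pairwise comparisons, as deposited, in which groups at 0 h take part. Per the submitters' processing notes the tools were Cuffdiff 2.2.1, TopHat2 2.1.0 and FastQC. These notes also list the builds mm9 and mm10 with no role, and which annotation was counted is not stated. A further 30 per-library columns, which repeat these libraries in other runs or belong to the 6 libraries at 0 h, were not used. The authors' 603 listed genes at 72 h all had q under 0.05 and a log2 fold change of 1 or more in either direction.

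The whole table was fitted as log2(FPKM + 1) by limma (version 3.58.1, R 4.3.3) with group as the single term, a prior variance that follows mean expression, and two-sided tests. Genes needed a mean of 1 FPKM over the 6 libraries, and p-values were adjusted by Benjamini-Hochberg over the 10723 genes that had it. Fold changes on this scale understate changes of low genes. The procedure was run on simulated data with log2 changes of 0.5, 1, 2 and 3 in 50 genes each. It recovered 34%, 74%, 92% and 100% of them, with 8 false calls among 158. The simulated noise was independent between genes, so the run does not cover the shared deviations of libraries described above. Members and gene lists were chosen with earlier results of these data known. Named genes are the members, up to 3 called genes per list by smallest p, tested genes of the S100, annexin and galectin lists, the highest and the called genes of marker lists, and Tcf7 and Lef1. Genes of the S100 cluster, Ahnak, Cd44, Id2, the called genes beyond 3 per list and the markers named at 0 fall outside that rule, and their values had been seen when they were picked. Positions came from GENCODE M21, to which 10 of 10 members and 22658 rows matched by symbol. Upstream sequences came from RefSeq. Tables and figures were made in Python 3.11.15 with pandas 2.3.3 and matplotlib 3.10.9.

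Alternatives covered pseudocounts of 0.1 and 5, other filters and scalings, limma without a trend, the column number as a block, leaving out libraries, a threshold of 0.01 and the authors' calls. A term for WT library 0 and DKO library 2, and a fit without WT library 1 and DKO library 0, were added after the data were seen.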

Additional observations from a re-analysis of the deposited data

How the results depend on the processing

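The count of members called lower, 3 as reported, was 1 with no filter, 1 at an adjusted p under 0.01, 0 without WT library 0 and DKO library 2, 1 without WT library 1 and DKO library 0, and from 1 to 3 when a single library was left out. Under the other settings, the block below aside, it stayed within 1.5 times of 3. The count called higher was 0 in all limma fits and 1 in the authors' deposited table. Over all genes the 1144 calls became 28 when WT library 0 and DKO library 2 were left out and 1904 when they had a term of their own, 313 without WT library 1 and DKO library 0, 317 at an adjusted p under 0.01, 603 in the authors' deposited table, and 388 to 765 without a single library. The 13 calls among companion genes became 1 and 7 without those pairs of libraries, 5 at an adjusted p under 0.01, 8 in the authors' deposited table, and 5 to 11 without a single library. Fits without libraries rest on fewer samples, and with no filter the adjustment runs over 16987 genes. The cause of these moves was not tested under any setting. The log2 fold change of S100a10, 0.16 as reported, turned to -0.063 without WT library 0 and otherwise reached up to 0.395 in fits without a single library. No other member changed sign under any setting run.

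With the column number as a replicate block, 356 genes were called in all, 1 member was lower (Anxa5) and 5 companion genes were called. Deviations of same-numbered libraries correlated at -0.17, 0.036 and -0.014. With 3 libraries per group these values cannot decide whether samples were paired, and the labels state no design. Depth is unknown, so no counting error could be given.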

Other observations

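Of 20 tested EF-hand and calcium-handling genes outside the S100 family, 1 fell in DKO and 0 rose (limma). Among all genes, 6.36% were lower and 4.31% higher. At an unadjusted p under 0.05, 2 were lower and 3 higher, against 1461 and 1347 of all 10723 genes. The median log2 fold change of the 20 was -0.076. The one was Hpcal1, a neuronal calcium sensor family gene, which went from 72.4 ± 5.77 to 50.9 ± 2.56 FPKM (SD, n = 3; limma adjusted p = 0.023) and kept its call only without WT library 0 (adjusted p otherwise up to 0.096).

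Over 7 tested genes of membrane repair, a process in which annexins take part, the median log2 fold change was 0.040. At an unadjusted p under 0.05, 2 were higher and 1 lower, against 1347 and 1461 of all 10723 genes. Limma called 1 higher and 1 lower, against 4.31% and 6.36% of all genes tested. Both called genes encode EH-domain proteins of endocytic recycling. Ehd1 rose from 39.4 ± 5.37 to 64.0 ± 8.41 FPKM (SD, n = 3; limma adjusted p = 0.033) and kept its call only without WT library 2 (adjusted p otherwise up to 0.12). Ehd4 fell from 6.69 ± 0.20 to 4.47 ± 0.15 FPKM (limma adjusted p = 0.012) and lost its call without DKO library 0 or 1 (adjusted p up to 0.062).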
